A study of Mus musculus with 2 samples.

Results

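Cycling oligodendrocyte precursors were nuclei of the mouse subventricular zone (SVZ) that carried transcripts of both the oligodendrocyte precursor and of dividing cells, and 71 MIP nuclei and 189 Control nuclei met this definition. They were 260 of the 28964 nuclei kept, of which 12114 were MIP and 16850 Control. A nucleus had to have at least 500 genes and at most 5% mitochondrial unique molecular identifiers (UMIs, each of which stands for 1 captured RNA molecule). It then needed at least 2 UMIs of Pdgfra and at least 3 detected genes among Olig1, Olig2, Sox10, Cspg4, Shc4, Stk32a, Epn2, Megf11 and Lhfpl3. These conditions are called the precursor gate, and 730 MIP and 1027 Control nuclei passed it. Of the 10 mitotic genes Top2a, Mki67, Kif11, Kif15, Cenpe, Cenpf, Knl1, Bub1b, Tpx2 and Aspm, at least 3 had to be detected as well. The nuclei were thus chosen by the measured counts of these 20 genes, whose levels are given as a description only.

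MIP stands for modeled intestinal perforation. Mice were assigned to the model or to the healthy Control group on postnatal day 5, and the SVZ was taken 48 h later, on postnatal day 7, and snap frozen before nuclei were isolated for single-nucleus RNA sequencing. All mice came from standard breeding; the sources used here give neither their strain and sex nor their number and pooling. Each group had 1 library, so no difference had a replicate check and no test was made. Intervals in brackets are exact 95% intervals that cover counting error only, and nuclei of 1 library are not replicates of a condition.

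Oligodendrocyte precursors arise in the ventricular germinal zones and spread through the brain, where they keep dividing and give rise to the cells that wrap axons in myelin. Division is driven by growth factors, above all platelet-derived growth factor acting on the receptor that Pdgfra encodes, and leaving the cell cycle goes before differentiation. A dividing cell copies its DNA in S phase, prepares in G2 and separates its chromosomes in mitosis, and each step has its own set of transcripts. Many genes of G2 and mitosis carry in their promoters the cell cycle genes homology region (CHR), which is bound by the MuvB complexes, and CCAAT boxes, which are bound by NF-Y. Genes of DNA replication more often carry sites for E2F factors.

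The promoters of 4 mitotic genes of the definition and of the replication gene Chaf1b are shown as examples of the cycle genes whose levels are described further on. Each is the RefSeq window of 300 bases around the gene start in the build GRCm38.p6, written 5′ to 3′ on the strand of the gene. Capitals mark matches on either strand. The element searched as CHR was TTTGAA, and the box of NF-Y was searched as its letters CCAAT. An E2F site was any of 3 strings, of which TTGGCGC was one. Another of these strings was TTCCCGC in the search. The third of these strings was TTCGCGC. No 2 matches overlapped.
Mki67, chr7:135716330-135716629, minus strand: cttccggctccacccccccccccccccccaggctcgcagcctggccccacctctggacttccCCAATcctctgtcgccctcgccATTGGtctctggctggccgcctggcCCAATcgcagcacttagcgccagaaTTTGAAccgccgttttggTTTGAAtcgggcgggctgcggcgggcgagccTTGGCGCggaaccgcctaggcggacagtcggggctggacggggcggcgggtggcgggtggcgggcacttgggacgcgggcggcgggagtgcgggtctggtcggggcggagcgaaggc
Top2a, chr11:99024140-99024439, minus strand: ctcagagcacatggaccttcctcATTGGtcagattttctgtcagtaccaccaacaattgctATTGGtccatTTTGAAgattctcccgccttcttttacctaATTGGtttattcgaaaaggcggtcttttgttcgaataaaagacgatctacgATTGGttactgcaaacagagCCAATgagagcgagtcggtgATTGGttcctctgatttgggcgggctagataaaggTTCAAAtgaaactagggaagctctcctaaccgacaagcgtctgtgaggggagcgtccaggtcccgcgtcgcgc
Cenpf, chr1:189688037-189688336, minus strand: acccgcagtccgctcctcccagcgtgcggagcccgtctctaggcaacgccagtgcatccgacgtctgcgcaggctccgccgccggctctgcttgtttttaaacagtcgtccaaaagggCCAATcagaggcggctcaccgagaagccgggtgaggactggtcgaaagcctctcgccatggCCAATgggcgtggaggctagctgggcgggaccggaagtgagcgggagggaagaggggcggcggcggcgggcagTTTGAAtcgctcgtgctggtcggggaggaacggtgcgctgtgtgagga
Kif15, chr9:122950831-122951130, plus strand: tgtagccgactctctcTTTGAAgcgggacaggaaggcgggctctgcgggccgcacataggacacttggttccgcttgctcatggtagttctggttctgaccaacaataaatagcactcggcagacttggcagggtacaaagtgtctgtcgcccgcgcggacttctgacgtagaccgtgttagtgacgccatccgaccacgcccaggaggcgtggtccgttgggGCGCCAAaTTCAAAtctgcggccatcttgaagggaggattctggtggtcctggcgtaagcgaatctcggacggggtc
Chaf1b, chr16:93883651-93883950, plus strand: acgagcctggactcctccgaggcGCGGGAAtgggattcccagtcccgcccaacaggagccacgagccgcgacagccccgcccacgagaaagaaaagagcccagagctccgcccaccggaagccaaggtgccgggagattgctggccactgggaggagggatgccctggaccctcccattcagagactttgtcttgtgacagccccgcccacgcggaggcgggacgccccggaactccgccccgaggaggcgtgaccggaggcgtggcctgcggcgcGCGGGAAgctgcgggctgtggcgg

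Mki67 held 2 CHR, 3 CCAAT and 1 E2F match, and Top2a 2 CHR and 6 CCAAT matches. Cenpf held 1 CHR and 2 CCAAT matches, and Kif15 2 CHR matches and 1 E2F match. Chaf1b held 2 E2F matches and no CHR or CCAAT match. A window was found for 9 of the 10 mitotic genes of the definition, and CHR was present in 8 of them (88.9%), against 4893 of 27025 windows over all genes (18.1%). In the wider lists of cycle genes, CHR was present in 49 of 80 windows of G2 and M phase genes (61.3%) and 10 of 69 windows of S phase genes (14.5%). E2F sites were present in 21 of 80 G2 and M phase windows (26.3%) and 40 of 69 S phase windows (58.0%), against 8.21% over all genes. CCAAT boxes were present in 54 G2 and M phase windows (67.5%) and 41 S phase windows (59.4%), against 37.9% over all genes. The mitotic genes that chose these nuclei were thus mostly of the CHR type. A match is only a string of letters, and no binding was measured.

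Depth and sex differed between the libraries. Cycling precursors had a median of 6314 UMIs in the MIP library (2649 to 136272) and 7866 UMIs in the Control library (1873 to 118061). Nuclei over 20000 UMIs were 6 of the 71 MIP nuclei and 32 of the 189 Control nuclei, and they held 40.1% of the summed MIP UMIs and 51.2% of the summed Control UMIs. A single MIP nucleus held 17.9%. Counts without these deep nuclei, an alternative chosen after seeing the data, therefore stand beside most of the list counts. Xist, the silencer of the inactive X chromosome, had 1 UMI in MIP and 6195 in Control cycling precursors, and the Y-linked gene Eif2s3y had 131 and 0. Each MIP to Control ratio thus also compares male with female nuclei, and the model and sex cannot be told apart. Of all barcodes 115 occurred in both libraries. None of them was a cycling precursor in both, although 5 cycling precursors had a barcode that was also present in the other library.

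The markers of the label were present. Sox10, the transcription factor of the oligodendrocyte lineage, was detected in 60 of 71 MIP and 179 of 189 Control cycling precursors, Mki67 in 47 and 122, Top2a in 65 and 163, and Cenpf in 31 and 115. A list of 20 precursor genes outside the definition summed to 11843 UMIs per 1000000 UMIs of the class (CPM) in MIP and 10953 CPM in Control cycling precursors, against 3122 and 3319 CPM in spiny projection neurons of the 2 libraries. No member of that list was at 0 in either library. In deep nuclei the list was lower, at 5913 CPM in MIP and 7054 CPM in Control, and a list of 12 spiny projection neuron genes was higher, at 2821 and 2731 CPM, against 1123 CPM in the other MIP and 1494 CPM in the other Control nuclei. Scrublet, a doublet caller, put 16 of 71 MIP and 57 of 189 Control cycling precursors among its top scores, and 16 MIP and 87 Control nuclei had at least 5 of the 12 spiny neuron genes. The part of doublets and free neuronal RNA in the results was not tested.

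A smaller share of precursors was cycling in the MIP library. Cycling nuclei were 9.73% of the MIP nuclei that passed the precursor gate (7.67 to 12.1) and 18.4% of the Control ones (16.1 to 20.9), a log2 ratio of -0.92 (-1.33 to -0.52). The gate itself took a like share of each library, 6.03% of MIP and 6.09% of Control nuclei. Over all nuclei, cycling precursors were 0.586% in MIP (0.458 to 0.739) and 1.12% in Control (0.968 to 1.29).

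Depth bears on a rule that counts detected genes, so each nucleus was also thinned to 2000 UMIs. With both steps applied to thinned nuclei, 19 of 364 MIP precursors (5.22%) and 44 of 470 Control precursors (9.36%) were cycling, a log2 ratio of -0.84 (-1.70 to -0.04). Nuclei under 2000 UMIs were left out, which were 5 MIP and 2 Control non-cycling precursors and 1 Control cycling precursor. Many more nuclei no longer passed the precursor gate once thinned, since 730 MIP and 1027 Control nuclei had passed it unthinned. With the gate unthinned and only the mitotic genes thinned, 36 of 725 MIP (4.97%) and 88 of 1024 Control precursors (8.59%) were cycling. The log2 ratio was then -0.79 (-1.39 to -0.22). Among spiny projection neurons, which do not divide, at least 3 of the 10 mitotic genes were found after thinning in 0.232% of MIP and 0.789% of Control nuclei. The unthinned values for these neurons were 1.36% of MIP and 3.18% of Control nuclei, at median depths of 9763 and 11091 UMIs. The precursor shares lay well above this background in both libraries, and the background was itself lower in the MIP library, by a log2 ratio of -1.76 after thinning (-2.91 to -0.77). Within windows of depth the MIP share was the lower one in 4 of 4, at 3.52% of MIP and 6% of Control precursors with 2000 to 4000 UMIs, and 10.3% and 11.4% with 4000 to 6000. It was 16.4% in MIP and 23.6% in Control with 6000 to 10000 UMIs, and 10.4% and 27.0% with 10000 to 20000. The interval of the log2 ratio included 0 in each window except that of 10000 to 20000 UMIs (-2.68 to -0.26).

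**Figure D1:**
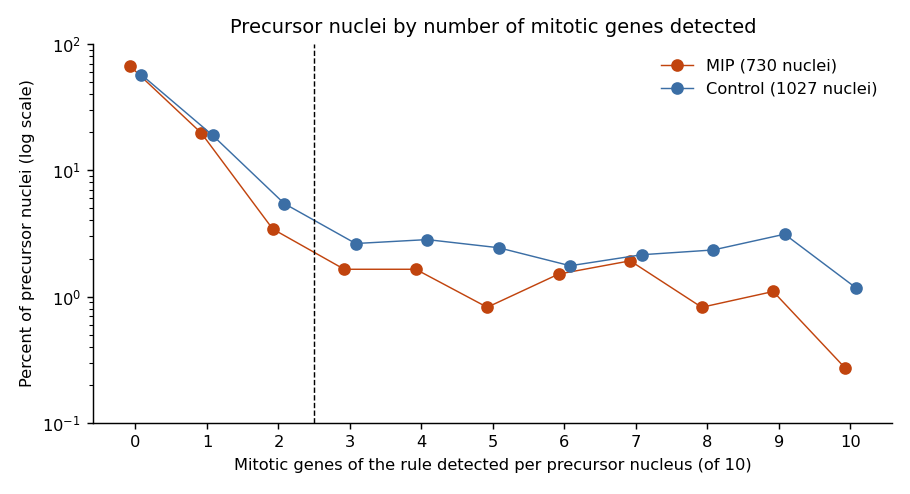
Percent of precursor nuclei (log axis) by the number of the 10 mitotic genes detected, 0 to 10, for 730 MIP and 1027 Control nuclei that passed the precursor gate; the dashed line marks the limit of 3 genes. The Control points lie above the MIP points at every number from 2 to 10, and the MIP points lie above at 0 and 1.

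The nuclei were spread over the whole range from few to all mitotic genes. Among precursors, 490 MIP and 588 Control nuclei had none of the 10 genes, and these are called non-cycling below. All 10 genes were detected in 2 MIP and 12 Control nuclei, and at least 6 in 41 of 71 MIP (57.7%) and 108 of 189 Control (57.1%) cycling precursors, with a median of 6 in each library. These numbers are set in part by the limit of 3 genes and by depth. Just inside the limit, 12 MIP and 27 Control nuclei had 3 genes and a summed G2 and M phase level of 1646 CPM in MIP and 1607 CPM in Control. Just outside, 25 MIP and 56 Control nuclei had 2 genes, with 1276 and 1368 CPM. Of the nuclei that met the other conditions, 17 MIP and 29 Control nuclei had 1 UMI of Pdgfra and stayed out, and 12 MIP and 13 Control nuclei had 2 and were taken in.

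**Figure D2:**
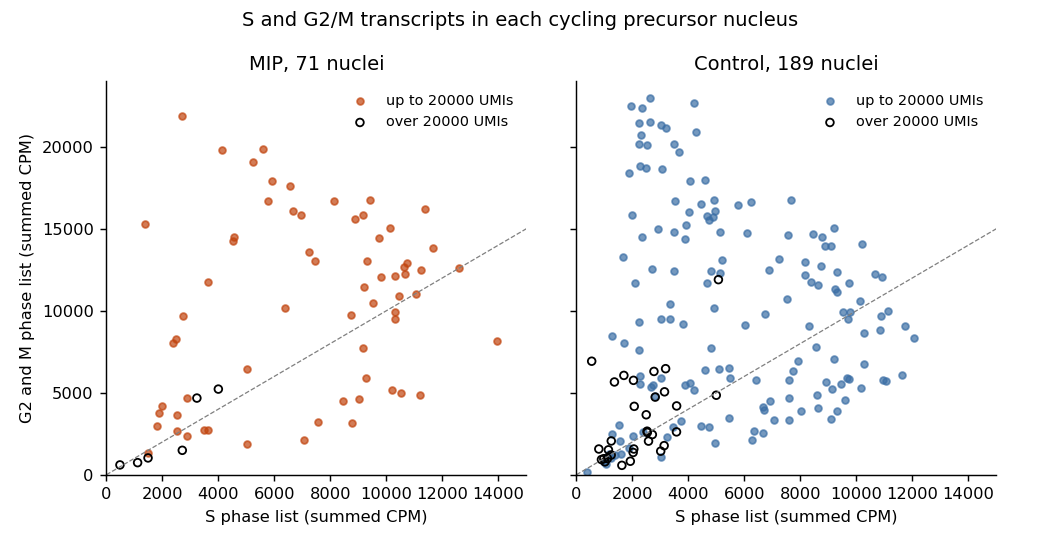
Summed CPM of the S phase list (horizontal) and of the G2 and M phase list without the 10 mitotic genes (vertical) for each cycling precursor nucleus, MIP on the left and Control on the right; open circles are nuclei over 20000 UMIs and the dashed line is equality. Most deep nuclei lie near the origin in both libraries, and the other nuclei spread from an S phase branch to a G2 and M phase branch.

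Cycling precursors differed widely among themselves in S phase and G2 and M phase transcripts. The S phase list, without the 10 mitotic genes, summed to 487 to 13937 CPM per MIP nucleus (median 7069) and 373 to 12064 CPM per Control nucleus (median 4201). The G2 and M phase list spanned 601 to 21895 CPM in MIP (median 10176) and 186 to 22994 CPM in Control (median 6940). Without deep nuclei the G2 and M phase medians were closer, at 11045 CPM in MIP and 9475 CPM in Control. Those of S phase were then 7560 and 4925 CPM. S phase transcripts exceeded those of G2 and M phase in 21 MIP nuclei (29.6%, 19.3 to 41.6) and 66 Control nuclei (34.9%, 28.1 to 42.2), and the intervals overlapped. Of all UMIs in the 2 lists, S phase took 41.1% in MIP (40.0 to 42.1) and 37.8% in Control (37.2 to 38.4), and 39.5% and 35.9% without deep nuclei. These intervals count pooled UMIs and leave out the wide spread between nuclei, so they are too narrow to compare nuclei. The 2 measures disagreed in direction, since S-leading nuclei were the smaller share in MIP. Without deep nuclei S-leading nuclei were 27.7% in MIP and 33.8% in Control. Mitotic genes of the definition split between these nuclei to different degrees. Cenpf was detected in 23.8% of S-leading and 54.2% of G2/M-leading MIP nuclei, and in 30.3% and 77.7% of the Control ones. Aspm, which acts at the spindle pole, was detected in 4.76% and 37.5% of these MIP nuclei and in 22.7% and 52.9% of the Control ones. Kif15, a spindle motor, was detected in 76.2% and 83.3% of these MIP nuclei and in 69.7% and 75.2% of the Control ones. This gap was much smaller in detection only. The summed Kif15 level was 84.9 CPM in S-leading and 331 CPM in G2/M-leading MIP nuclei, and 73.7 and 196 CPM in the Control ones. The S phase gene Atad2 was detected in 81.0% of S-leading and 81.3% of G2/M-leading MIP nuclei, and in 66.7% and 60.3% of the Control ones. Its summed level was higher in G2/M-leading nuclei, at 133 CPM in S-leading and 346 CPM in G2/M-leading MIP nuclei. In the Control ones it was 105 and 128 CPM.

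The 10 mitotic genes did not all lean the same way between the libraries. Mki67, a protein that coats mitotic chromosomes, had 107 UMIs in MIP and 268 in Control cycling precursors, or 140 and 102 CPM, a log2 ratio of 0.47 (0.13 to 0.79). Kif15 had 171 UMIs in MIP and 367 in Control, or 224 and 139 CPM, a log2 ratio of 0.69 (0.42 to 0.95). Without nuclei that had 5 or more spiny neuron genes, Kif15 was at 0.58 and no longer at 1.5-fold. Cenpf, a kinetochore protein of late G2 and mitosis, lay the other way, with 56 UMIs in MIP and 347 in Control, or 73.4 and 131 CPM, a log2 ratio of -0.84 (-1.27 to -0.43). Top2a, the topoisomerase that untangles DNA, was at 387 and 356 CPM, a log2 ratio of 0.12 (-0.08 to 0.31). The other 6 ranged from -0.38 for Aspm to 0.38 for Bub1b, the checkpoint kinase, each with an interval that included 0.

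The precursor genes of the definition were close between the libraries with few exceptions. Pdgfra had 2 to 20 UMIs per MIP nucleus (median 5) and 2 to 21 per Control nucleus (median 7), and 566 CPM in MIP and 513 CPM in Control over the sums, a log2 ratio of 0.14 (-0.02 to 0.30). Cspg4, the NG2 proteoglycan of the precursor surface, was at 155 CPM in MIP and 91.3 CPM in Control, a log2 ratio of 0.76 (0.43 to 1.08). Shc4, an adaptor of receptor tyrosine kinases, was at 106 and 69.7 CPM, a log2 ratio of 0.61 (0.21 to 0.99), and at 0.49 without deep nuclei. Sox10, Olig1, Olig2, Stk32a, Epn2, Megf11 and Lhfpl3 lay between -0.22 and 0.18.

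**Figure D3:**
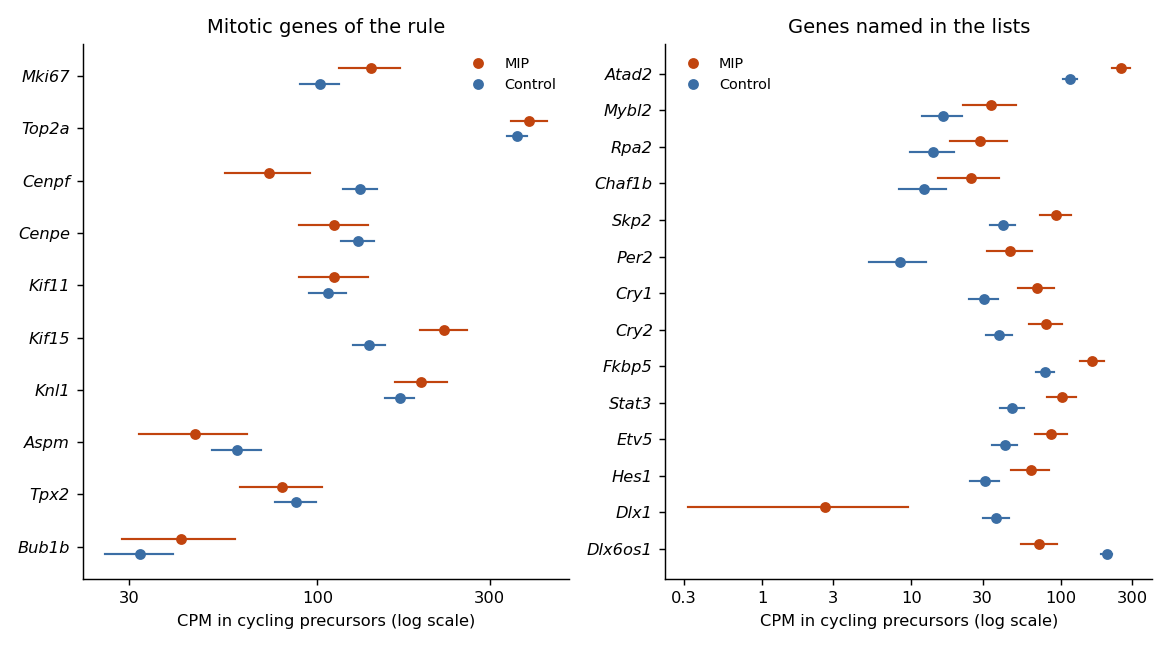
Summed CPM (log axis) with exact 95% Poisson intervals in MIP and Control cycling precursors for the 10 mitotic genes of the definition (left) and for genes named in the lists (right). On the left Kif15 and Mki67 lie higher and Cenpf lower in MIP, and on the right every gene except Dlx1 and Dlx6os1 lies higher in MIP.

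Over all genes with at least 50 UMIs in the 2 libraries together, 461 of 9157 (5.03%) were at least 1.5-fold higher and 1246 (13.6%) at least 1.5-fold lower in MIP than in Control cycling precursors. Without deep nuclei these shares were 6.6% and 13.9% of 6542 genes. With scaling by trimmed means of M values (TMM) 597 genes were higher and 1050 lower, and with each nucleus counted once 708 and 1634. With scaling by totals, used for the list counts, the median over all genes was a log2 ratio of -0.06. Counts of list members below are to be read against the shares of 5.03% and 13.6%, or 6.6% and 13.9% without deep nuclei. They are descriptions, since nothing was tested and the lists were chosen with results of these data known.

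S phase genes mostly lay on the higher side in MIP cycling precursors. Of 73 members with enough UMIs, 21 were at least 1.5-fold higher and 4 lower (median 0.32). Without deep nuclei 15 of 65 were higher and 2 lower (median 0.26). Atad2, a chromatin factor of the S phase (chromosome 15, 58094044 to 58135082 of mm10), had 194 UMIs in 58 of 71 MIP nuclei and 305 UMIs in 117 of 189 Control nuclei, or 254 and 116 CPM, a log2 ratio of 1.14 (0.87 to 1.40). It was detected in 81.7% of MIP and 61.9% of Control cycling precursors. Mybl2, which encodes the B-Myb activator of mitotic genes, was at 34.1 and 16.3 CPM, a log2 ratio of 1.07 (0.30 to 1.80). Rpa2, a subunit of the complex that binds single-stranded DNA, was at 1.04 (0.21 to 1.84), and Chaf1b, a histone chaperone of replication, also at 1.04 (0.14 to 1.90).

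Genes of the replication machinery were also among the exceptions. Mcm7, a subunit of the replicative helicase, was at 18.4 CPM in MIP and 33.0 CPM in Control, a log2 ratio of -0.84 (-1.77 to -0.02), and at -0.39 without deep nuclei. Pcna, the sliding clamp of replication, was at -0.71 (-1.61 to 0.09), Polk, a polymerase of DNA damage bypass, at -0.79 (-2.0 to 0.24), and the transcription factor gene E2f1 at -0.64 (-1.94 to 0.47), so the last 3 intervals included 0. E2f1 changed sign under 4 alternatives, at 0.38 without top Scrublet scores, 0.20 with each nucleus counted once, 0.99 in thinned nuclei and 0.14 without nuclei that had 5 or more spiny neuron genes. Among non-cycling precursors 3 of 47 S phase genes were higher and 9 lower in MIP (median -0.10), where 3.14% of all genes were higher and 12% lower, and 3.52% and 12.4% without deep nuclei. Among cycling Dlx progenitors, the dividing cells of the neuron lineage, 2 of 76 were higher and 6 lower (median 0.03), where 4.39% of all genes were higher and 11.9% lower, and 4.91% and 12.2% without deep nuclei. Whether the S phase list differs more in cycling precursors than in these nuclei was not tested.

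G2 and M phase genes leaned neither way as a list. Of 91 members 7 were higher and 4 lower in MIP (median 0.10), and without deep nuclei 6 of 85 were higher and 6 lower. Ska3, which ties kinetochores to microtubules, was at 53.7 CPM in MIP and 25.8 CPM in Control, a log2 ratio of 1.06 (0.47 to 1.64). Iqgap3, a scaffold protein, was at 74.7 and 36.7 CPM, a log2 ratio of 1.02 (0.53 to 1.51), and Kif20a, a motor of cell division, at 27.5 and 14.02 CPM, a log2 ratio of 0.97 (0.13 to 1.78). On the other side were Cenpa, the histone of the centromere, at -0.91 (-1.58 to -0.29), Parpbp, a regulator of recombination, at -0.93 (-1.63 to -0.30), Sgo1, which guards centromeric cohesion, at -0.89 (-1.90 to -0.004; 0.40 in thinned nuclei) and Ube2c, which helps to destroy mitotic cyclins, at -0.99 (-2.27 to 0.09).

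Genes that steer entry into the cycle were mixed. Of 11 G1 cyclin and kinase genes with enough UMIs 2 were higher and 1 lower in MIP, and without deep nuclei 1 of 7 higher and 4 lower. Skp2, the ligase subunit that removes the cycle inhibitor p27 (chromosome 15, 9111985 to 9155425), had 71 UMIs in 34 MIP nuclei and 108 UMIs in 68 Control nuclei, or 93.1 and 40.9 CPM, a log2 ratio of 1.19 (0.73 to 1.63). Cdkn1b, which encodes p27, was at 15 UMIs in MIP and 91 in Control, a log2 ratio of -0.81, and it was among the 2 lower members of 12 inhibitor and exit genes, of which 1 of 10 was lower without deep nuclei. Ccnd3, a G1 cyclin, was at 0.90 (0.04 to 1.73) and at 0.57 without deep nuclei, with 45% of its MIP UMIs in a single nucleus. Cks2, a cyclin-dependent kinase subunit, was at -0.92 (-1.98 to 0.01). Of 6 histone cluster genes with enough UMIs 4 were lower in MIP and 0 higher (median -0.77), and 2 of 3 were lower without deep nuclei. Hist1h1e, a linker histone, was at 22.3 CPM in MIP and 49.6 CPM in Control, a log2 ratio of -1.16 (-1.98 to -0.42). Histone genes were also lower in 4 of 5 in MIP non-cycling precursors and in 4 of 8 in MIP Dlx progenitors.

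**Figure D4:**
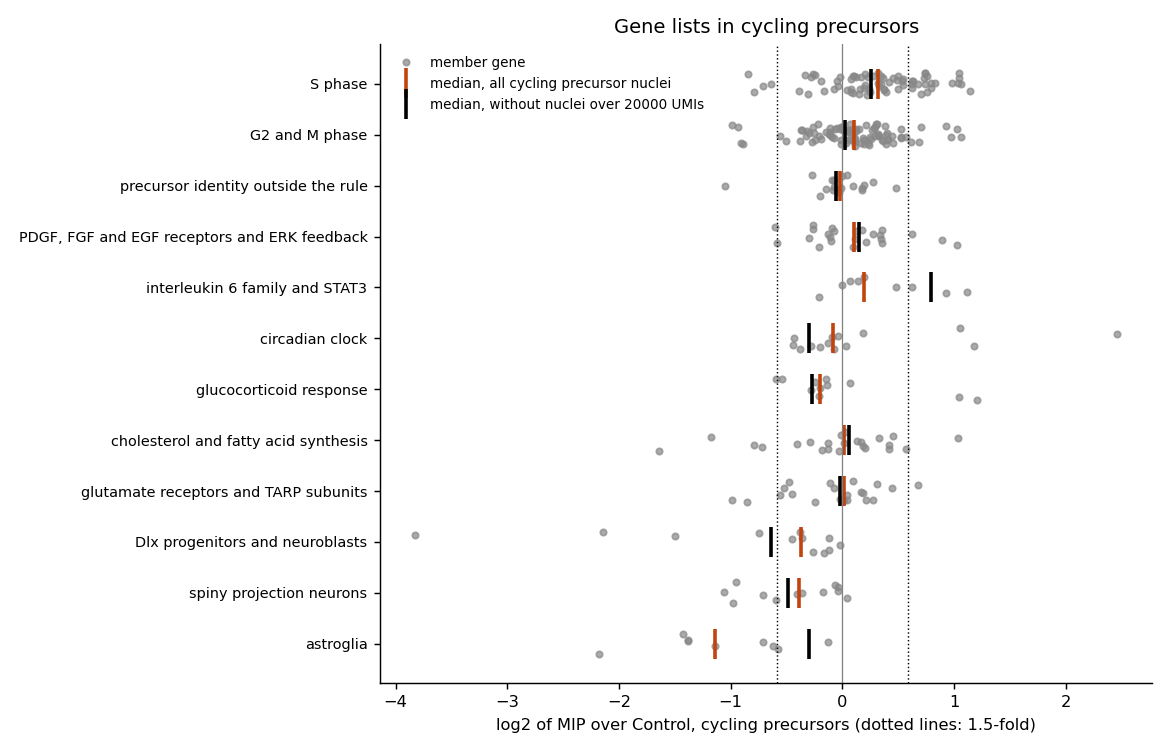
The log2 ratio of MIP over Control in cycling precursors for each list member with at least 50 UMIs (grey points), by list; the red bar is the median over all cycling nuclei, the black bar the median without nuclei over 20000 UMIs, and the dotted lines mark 1.5-fold. The S phase medians lie above 0 and the Dlx, spiny neuron and astroglia medians below, and the astroglia median is -0.30 without deep nuclei and -1.14 with them.

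Among growth factor receptors and their feedback genes 3 of 24 were higher and 2 lower in MIP (median 0.11), and 4 of 23 and 1 without deep nuclei. Etv5, a transcription factor induced by ERK signalling (chromosome 16, 22381309 to 22439719), had 66 UMIs in MIP and 112 in Control, or 86.5 and 42.4 CPM, a log2 ratio of 1.03 (0.57 to 1.48). In non-cycling precursors it was at 0.64. Spry4, an inhibitor of the same pathway, was at 0.89 (0.21 to 1.54), and Insr, the insulin receptor, at 0.62 (0.31 to 0.93). The ligand genes Pdgfc and Pdgfa were at -0.60 (-1.37 to 0.10) and -0.59 (-1.73 to 0.40).

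Genes of the interleukin 6 family and its transducer were higher in 3 of 9 and lower in 0, and 4 of 5 and 0 without deep nuclei. Stat3, the transcription factor of this pathway (chromosome 11, 100885098 to 100939540), had 78 UMIs in 37 MIP nuclei and 125 UMIs in 76 Control nuclei, or 102 and 47.4 CPM, a log2 ratio of 1.11 (0.68 to 1.53). Lifr, a receptor subunit of the family, was at 51.1 and 26.9 CPM, a log2 ratio of 0.93 (0.32 to 1.51), and Bcl6, a repressor induced by STAT3, at 0.63 (-0.06 to 1.28), but -0.47 in thinned nuclei. In non-cycling precursors Stat3 was at 0.84 and Lifr at 0.18. Markers of microglia lay the same way: 3 of 4 were higher, 2 of 3 without deep nuclei, and the 12 marker genes summed to 265 CPM in MIP and 169 CPM in Control cycling precursors. Inpp5d, a phosphatase of blood and immune cells, was at 1.60 (0.83 to 2.37) but came from 5 MIP and 8 Control nuclei. Cx3cr1 was at 0.82 (0.08 to 1.53), but -0.40 in thinned nuclei, and 1 MIP marker was at 0. The part of microglial RNA in the Stat3 and Lifr values was not tested.

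The clock gene Per2 had the highest ratio among list members outside the sex-linked genes. Per2, a repressor of the circadian clock that glucocorticoids also induce (chromosome 1, 91415982 to 91459324), was detected in 26 of 71 MIP nuclei (36.6%, 25.5 to 48.9) and 18 of 189 Control nuclei (9.52%, 5.74 to 14.6). It had 35 UMIs in MIP and 22 in Control, or 45.9 and 8.33 CPM, a log2 ratio of 2.46 (1.65 to 3.30), and 3.25 without deep nuclei. In non-cycling precursors it was at 1.30. Cry1 and Cry2, the partners of the Per proteins, were at 1.18 (0.65 to 1.70) and 1.05 (0.57 to 1.52), and the other 11 of the 14 clock genes were within 1.5-fold. Without deep nuclei 2 of 11 clock genes were higher and 4 lower. Clock genes were also higher outside this class. In MIP non-cycling precursors 5 of 17 were higher and 1 lower, where 3.14% of all genes were higher. Among MIP cycling Dlx progenitors 4 of 14 were higher and 0 lower, where 4.39% of all genes were higher. Per2 was detected in 21.5% of MIP and 10.9% of Control spiny projection neurons. The sources used here do not give the time of day at which tissue was taken, so time of day and the model cannot be told apart.

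Of 11 glucocorticoid response genes 2 were higher and 1 lower in MIP, and 1 and 1 of 8 without deep nuclei. Fkbp5, a co-chaperone of the glucocorticoid receptor (chromosome 17, 28399094 to 28517527), was detected in 52 of 71 MIP and 108 of 189 Control nuclei, with 124 and 208 UMIs, or 163 and 78.8 CPM, a log2 ratio of 1.04 (0.71 to 1.37). It was at 1.35 in non-cycling precursors. Rhou, a small GTPase, was at 1.21 (0.51 to 1.88), and Nr3c2, the mineralocorticoid receptor, at -0.59 (-0.97 to -0.24). Among immediate early genes 1 of 6 was higher, Egr1, at 39.3 CPM in MIP and 17.05 CPM in Control, a log2 ratio of 1.21 (0.49 to 1.90), and 1.28 in non-cycling precursors. Without deep nuclei 0 of 3 were higher and 1 lower.

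Signals that hold precursors back or move them on gave mixed counts. In the Notch list 1 of 10 genes was higher and 3 lower, but 2 of 7 higher and 1 lower without deep nuclei. The Notch target Hes1 was at 62.9 CPM in MIP and 31.1 CPM in Control, a log2 ratio of 1.02 (0.47 to 1.55), against -1.49 (-2.86 to -0.37) for the receptor Notch2 and -1.04 (-2.32 to 0.03) and -0.63 (-1.14 to -0.14) for the Notch inhibitors Numbl and Numb. Notch2 was at 0.40 in thinned nuclei, and Numbl at 0.037 without nuclei that had 5 or more spiny neuron genes. In the BMP list 2 of 12 were higher and 1 lower, and 1 of 8 and 0 without deep nuclei, with the ligand Bmp7 at 1.02 (0.45 to 1.57), Smad1 at 0.61 (0.05 to 1.15) and Id4, an inhibitor of lineage factors, at -0.87 (-1.73 to -0.10). Smad1 was at 0.50 and Id4 at -0.57 without deep nuclei, both within 1.5-fold. In the Wnt list 0 of 12 were higher and 4 lower, and 0 and 3 of 10 without deep nuclei, among them Tcf7l1 at -1.30, Axin2 at -0.90 and Tcf7l2, which also marks committed oligodendrocytes, at -0.79. In the Hedgehog list 1 of 7 was higher and 2 lower, the transcription factor gene Gli3 at -2.09 and the transducer gene Smo at -1.02. Without deep nuclei 4 Hedgehog genes had enough UMIs, and 0 were higher and 0 lower. Axin2 was at -0.34 without deep nuclei and at 1.41 in thinned nuclei.

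Lipid synthesis genes, which myelin formation later calls on, gave few members past 1.5-fold in cycling precursors. Of 23 genes 1 was higher and 4 lower (median 0.01), and without deep nuclei 3 of 20 were higher and 2 lower (median 0.06). With each nucleus counted once 5 were higher and 4 lower (median 0.18). In non-cycling precursors 7 of 27 were higher and 1 lower (median 0.33), and 6 and 3 without deep nuclei (median 0.28). The difference between the 2 kinds of precursor was not tested. Nsdhl, an enzyme of cholesterol synthesis, was at -1.65 (-3.14 to -0.45), and Scd2, a fatty acid desaturase, at -0.72 (-1.23 to -0.24). Of 22 glutamate receptor and TARP subunit genes 1 was higher and 2 lower, and 0 and 3 of 20 without deep nuclei: the kainate receptor Grik2 at 0.67 (0.59 to 0.76), with 32.0% of its MIP UMIs in a single nucleus and 0.56 without deep nuclei, Grm3 at -0.99 (-1.30 to -0.69) and Cacng8 at -0.86 (-1.58 to -0.20).

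The other lists gave few members past 1.5-fold. Counts were 0 higher and 0 lower of 4 NF-kB genes, 0 and 2 of 7 interferon genes, 2 and 1 of 14 integrated stress genes and 0 and 3 of 11 hypoxia genes, with P4ha1, a collagen hydroxylase, at -1.15. They were 1 and 2 of 10 p53 and DNA damage genes, 0 and 3 of 27 potassium and sodium channels, 1 and 1 of 10 committed oligodendrocyte genes and 0 and 1 of 4 myelin genes. Without deep nuclei they were 0 and 0 of 3 NF-kB genes, 0 and 1 of 1 interferon gene, 1 and 1 of 8 integrated stress genes and 1 and 3 of 7 hypoxia genes. They were then 1 and 1 of 7 p53 and DNA damage genes, 1 and 0 of 20 channels, 0 and 2 of 9 committed oligodendrocyte genes and 0 and 0 of 3 myelin genes. Of 18 precursor identity genes outside the definition 0 were higher and 1 lower (median -0.02), and without deep nuclei 0 and 1 of 17. Pcdh15, a protocadherin, was at 0.27 and Tnr, a matrix protein, at 0.18, and the exception was Sox9, a factor of early glial cells, at -1.05 (-2.11 to -0.14). Sox9 was at -0.62 without deep nuclei.

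Some genes of the neuron lineage were lower in MIP cycling precursors. Of 12 Dlx progenitor and neuroblast genes 4 were lower and 0 higher (median -0.37), and without deep nuclei 6 of 9 were lower (median -0.64). The list was also lower in MIP non-cycling precursors, with 5 of 14 lower and 0 higher (median -0.36), where 12% of all genes were lower. In cycling Dlx progenitors, chosen by neuron lineage genes, 2 of 18 were lower and 1 higher (median 0.07). Whether the list differs more in cycling precursors was not tested. The genes that follow are given for cycling precursors. Sp9, a transcription factor gene of the list, was at -0.75, but at -0.17 without deep nuclei, 0.36 without nuclei that had 5 or more spiny neuron genes and 0.67 in thinned nuclei. Dlx1, a homeobox gene of inhibitory neuron progenitors (chromosome 2, 71528113 to 71533981), had 2 UMIs in 2 of 71 MIP nuclei (2.82%, 0.343 to 9.81) and 98 UMIs in 33 of 189 Control nuclei (17.5%, 12.3 to 23.6), a log2 ratio of -3.82 (-6.89 to -1.93). Of the 33 Control nuclei 32 also had Sox10, 18 were among the top Scrublet scores and 15 had over 20000 UMIs. Its antisense gene Dlx1as overlaps it, at -3.86 (-6.16 to -2.29), and whether reads were counted by strand is not stated, so the 2 cannot be told apart. Dlx6os1 was detected in 11 of 71 MIP and 55 of 189 Control nuclei, a log2 ratio of -1.50 (-1.92 to -1.09).

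Dlx1 was also found in nuclei outside the cycling class. It was detected in 3.67% of MIP and 7.48% of Control non-cycling precursors, 7.25% of MIP and 14.4% of Control spiny projection neurons and 56.3% of MIP and 67.0% of Control cycling Dlx progenitors. The MIP share was the lower one in all 4 kinds of nuclei, but MIP nuclei were also shallower in each. Median depths were 4536.5 UMIs in MIP and 5590.5 in Control non-cycling precursors, and 9762.5 and 11091 in spiny projection neurons. They were 4715 and 5700 in cycling Dlx progenitors and 6314 and 7866 in cycling precursors. The part of depth in these shares was not tested. Cycling Dlx progenitors were chosen by neuron lineage genes, so their Dlx1 shares in part describe that choice. Markers of spiny neurons were lower in 5 of 12 in MIP cycling precursors (3 of 9 without deep nuclei), at a summed 1805 CPM in MIP and 2127 CPM in Control. Their median log2 ratio was -0.39 in cycling precursors, -0.42 in non-cycling precursors and -0.38 in cycling Dlx progenitors. In each of the last 2 kinds of nuclei 2 of 12 were lower. In cycling precursors the examples Drd2 and Adora2a, receptors of the indirect striatal pathway, were at -0.98 and -1.06. They were at 0.037 and 1.45 without nuclei that had 5 or more spiny neuron genes. Those nuclei, 16 of 71 MIP and 87 of 189 Control ones, were picked by genes of this same list. For spiny markers leaving them out is therefore not a separate check. Astroglial markers were lower in 7 of 9 in MIP cycling precursors, with a sum of 697 CPM in MIP and 1160 CPM in Control, and in 0 of 5 without deep nuclei. In non-cycling precursors 4 of 14 were lower. No Dlx or spiny marker was at 0 in either library, and 1 astroglial marker was at 0 in MIP. Their part in the neuron lineage values was not tested.

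Genes were ranked by the end of the interval closest to equality, leaving out sex-linked, mitochondrial, ribosomal protein and haemoglobin genes. A ranked gene also needed a CPM at least as high as over all kept nuclei in either library. The highest ranked in MIP cycling precursors were Ptgds, Per2, Itga8, Atad2, Col19a1, Inpp5d, Ntng1, Sipa1l2, Nkain3 and Inpp4b. Ptgds, a prostaglandin synthase, was at 2.54 (1.87 to 3.23), but 71.2% of its MIP UMIs lay in 1 nucleus and it was at 1.12 without deep nuclei. Itga8, an integrin subunit, was at 78.6 CPM in MIP and 29.2 CPM in Control, a log2 ratio of 1.43 (0.92 to 1.94), and 1.85 without deep nuclei. Sipa1l2, which acts on Rap GTPases, was at 1.18 (0.75 to 1.60), Col19a1, a collagen, at 1.19 (0.83 to 1.53), Inpp4b, a lipid phosphatase, at 0.93 (0.74 to 1.11) and Nkain3, a partner of the sodium pump, at 0.87 (0.74 to 0.99). Ntng1, an axon guidance gene, was at 1.05 (0.76 to 1.33) with 50.3% of its MIP UMIs in 1 nucleus, and at 0.41 without deep nuclei. In non-cycling precursors Inpp5d was at 1.77 (32 UMIs in MIP and 14 in Control), Per2 at 1.30, Col19a1 at 0.88, Sipa1l2 at 0.80 and Inpp4b at 0.70. Ptgds was there at 0.47, Itga8 at 0.41, Nkain3 at 0.39, Atad2 at 0.02 and Ntng1 at -0.27.

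The 10 lowest of the genes ranked in this way were 8030451A03Rik, Gm29260, Bnc2, Dlx1as, Dlx1, Plch1, C030005K06Rik, Prdm16, Thap3 and Adamts16. Plch1, a phospholipase C, had 3 UMIs in MIP and 95 UMIs in 56 of 189 Control nuclei, a log2 ratio of -3.19 (-5.50 to -1.60), and it was at -1.60 in non-cycling precursors. Thap3 was at 22.3 CPM in MIP and 89.0 CPM in Control, a log2 ratio of -2.0 (-2.80 to -1.29), with 17 UMIs in 12 MIP nuclei and 235 UMIs in 99 Control nuclei. In non-cycling precursors Thap3 was at -0.94 (-1.24 to -0.66). Prdm16, a regulator of neural stem cells, was at -2.81 (-4.71 to -1.41) and at -1.24 without deep nuclei. The lead gene 8030451A03Rik had 1 UMI in MIP and 164 in Control (-10.9 to -3.07 for a log2 ratio of -5.57), from 18 Control nuclei of which 12 were deep. Bnc2 had 1 UMI in MIP and 105 in Control (-10.2 to -2.41 for a log2 ratio of -4.92), with 55.2% of the Control UMIs in 1 nucleus. The spread-out Control counts of Plch1 and Thap3 thus differ from those of Bnc2 and 8030451A03Rik, which rest on few cycling nuclei. In non-cycling precursors 8030451A03Rik had 28 UMIs in MIP and 173 in Control, a log2 ratio of -2.05 (-2.68 to -1.47). Bnc2 was there at 0.32 (-0.42 to 1.05), C030005K06Rik at -2.09, Gm29260 at -1.13, Prdm16 at -0.85, Dlx1as at -0.79, Dlx1 at -0.71 and Adamts16 at -0.36. Whether the ranked genes differ more in cycling precursors was not tested.

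Set against non-cycling precursors of the same library, cycling precursors carried the transcripts of the whole cycle. Since the definition chose nuclei by mitotic genes, these values describe the choice. Of 9048 genes with at least 50 UMIs in each library, 3.44% were at least 1.5-fold higher and 1.89% lower in both libraries, and 3.84% and 1.38% of 8325 without deep nuclei. Of the G2 and M phase genes outside the definition 48 of 50 were higher in both libraries, and of the S phase genes 40 of 48. The highest outside those lists were Stil, a centriole duplication gene, at a log2 ratio of 5.22 in MIP and 4.24 in Control, Bard1, the partner of Brca1, at 4.83 and 3.37, and Rtkn2 at 4.15 and 3.24. Fbxo5, an inhibitor of the anaphase-promoting complex, was at 3.41 and 2.90, and Cenph, a kinetochore subunit, at 2.83 and 3.08. Further down the same ranking stood Gm12811, Efcab11, Kifc5b, Rad51b and Nemp1, from 2.29 to 3.93 over both libraries. Of 12 inhibitor and exit genes 3 were higher, the Rb family gene Rbl1 at 1.93 in MIP and 1.15 in Control, and Lin9 and Lin54, subunits of the MuvB core that binds CHR elements, at 1.23 and 1.76 and at 0.81 and 0.92.

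Fewer genes were lower in cycling than in non-cycling precursors. Gjc3, a connexin of myelinating glia, was at -2.89 in MIP and -1.38 in Control, Tes, an actin regulator, at -1.07 and -1.01, Itga9, an integrin subunit, at -1.14 and -0.78, and Atp10b, a lipid flippase, at -1.44 and -0.96. Wipf1, another actin regulator, was at -0.92 and -0.66, and the noncoding Gm4876, Gm12145 and Gm34923 at -0.78 to -1.61. Without deep nuclei Gjc3, Tes, Gm12145 and Gm34923 stayed past 1.5-fold in both libraries. Wipf1 was then at -0.53 in MIP and -0.12 in Control, Gm4876 at -0.46 and -0.56, Atp10b at -1.13 and -0.26 and Itga9 at -1.28 and -0.45, so these 4 no longer passed 1.5-fold in both. Gm42418 and AY036118 also ranked here, but they overlap ribosomal RNA and are uncertain. Of 20 precursor identity genes outside the definition 4 were lower, Matn4, Neu4, Bcan and Gpr37l1, at -0.61 to -1.0, and 0 without deep nuclei. Of 25 growth factor receptor and feedback genes 3 were lower, the ERK feedback genes Dusp6 at -1.32 in MIP and -0.91 in Control and Spry1 at -0.99 and -1.03, and the ERK target Etv4 at -0.81 in each. Without deep nuclei 1 of these 25 was lower.

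**Figure D5:**
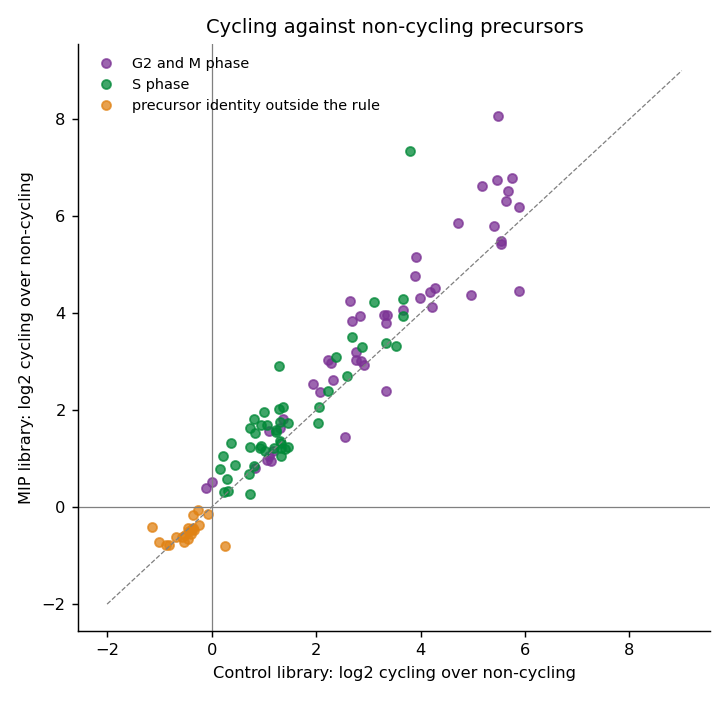
The log2 ratio of cycling over non-cycling precursors in the MIP library (vertical) against the same in the Control library (horizontal) for genes of 3 lists outside the definition with at least 50 UMIs in each library; 4 cycle genes with 0 UMIs in non-cycling nuclei of a library are not drawn, and the dashed line is equality. Cycle genes lie up and right and precursor identity genes near or below 0.

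The level of cycle transcripts grew with the number of mitotic genes detected. The G2 and M phase sum was 863 CPM in non-cycling MIP precursors, 1206 CPM with 1 to 2 genes, 3502 CPM with 3 to 5 and 8342 CPM with 6 to 10. In Control precursors it was 968, 1140, 2641 and 8642 CPM in the same order. The S phase sum was 1272, 2118, 4069 and 4648 CPM in MIP and 1357, 1676, 3222 and 3829 CPM in Control over these classes. It was already well up at 3 to 5 genes, and MIP lay above Control in each class that had a mitotic gene. MIP nuclei were also shallower in these classes, at median depths of 5965, 5873 and 6510 UMIs, against 6839, 7238 and 8030.5 in Control. At lower depth, detecting as many genes takes a higher level per UMI, and the part of depth here was not tested.

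Cycling Dlx progenitors, 135 MIP and 309 Control nuclei, were used to see what sets dividing precursors apart from other dividing cells. They had at least 3 of the same mitotic genes and 3 of 10 neuron lineage genes, no Pdgfra UMI and under 3 of the other precursor genes, so markers of either class only describe the choice. Of 6239 genes 6.07% were at least 1.5-fold higher in cycling precursors in both libraries and 6.97% lower, and 8.32% and 9.62% of 5155 without deep nuclei. With TMM scaling 524 genes were higher and 247 lower, against 379 and 435 with scaling by totals. With totals the median gene lay at -0.16 in MIP and -0.14 in Control. Of 13 precursor identity genes outside the definition 9 were higher. Bcas1, a gene of early oligodendrocytes, was at 4.50 in MIP and 6.15 in Control, Prkcq, a protein kinase C, at 5.27 and 5.97, Sema3d, a guidance molecule, at 5.07 and 4.53, and Pstpip2, a cytoskeletal adaptor, at 6.20 and 4.29.

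Of 4 G1 cyclin and kinase genes 2 were lower in cycling precursors than in Dlx progenitors. Ccnd2, a G1 cyclin, had 50 UMIs in MIP cycling precursors and 747 in MIP Dlx progenitors, and 256 and 1762 UMIs in the Control ones, log2 ratios of -3.65 and -2.85. Cdk6, its kinase partner, was at -1.95 in MIP and -2.57 in Control. Of 84 G2 and M phase genes 24 were lower in cycling precursors, but 3 without deep nuclei, and of 60 S phase genes 9, but 2 without deep nuclei. Of 5 Hedgehog genes 3 were lower, with Gli3 at -3.21 in MIP and -1.52 in Control. In the Notch list 3 of 7 were higher and 1 lower, with Hes1 at 2.37 and 2.12. Among glutamate receptor and TARP genes 6 of 20 were higher and 0 lower, and 7 of 19 higher and 3 lower without deep nuclei, with the kainate receptor genes Grik4 at 2.40 and 1.54 and Grik1 at 1.67 and 1.48. Of 17 growth factor receptor and feedback genes 1 was higher and 3 lower, and 2 and 3 without deep nuclei. The growth factor receptor Egfr was at -2.48 in MIP and -2.84 in Control, and Etv5 at 1.71 and 0.96.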

How the data were processed

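The deposited values are whole-number counts of UMIs per gene and barcode for 32285 genes, which the authors made with Cell Ranger 5.0.1 on the build mm10, per the submitters' processing notes. The sources used here give neither the strand and intron settings nor the filter for barcodes. The MIP library held 12366 barcodes with 100823376 UMIs and the Control library 16964 barcodes with 146730970 UMIs. Barcodes under 500 genes (204 MIP, 0 Control) or over 5% mitochondrial UMIs (48 and 114) were left out, and none of them met the gene conditions. The members, gene lists and comparisons were chosen with earlier results of these data known.

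Counts of each class of nuclei were added up per library and divided by the total of that class. The log2 ratio of 2 such sums has an exact conditional binomial interval, and shares have Clopper-Pearson intervals, both at 95% and for counting error only. A gene counted as higher or lower at 1.5-fold, with at least 50 UMIs over both libraries, or in each library for comparisons within libraries. Rankings of genes left out sex-linked, mitochondrial, ribosomal protein and haemoglobin genes. That of MIP over Control took only genes with a CPM at least as high as over all kept nuclei in either library. Rankings within libraries also left out genes of the definition and of the S phase, G2 and M phase and histone lists. Named genes were those of the definition, the 10 highest and 10 lowest by the end of the interval closest to equality (5 and 5 against Dlx progenitors), and 2 to 4 members of each list with the widest ratios, plus contrary ones. Some were named beyond that rule after their values were seen, such as Stat3 in non-cycling nuclei, Cdkn1b, Etv4, Egfr and Sox10. A few others that met it are left unreported.

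Scrublet in Scanpy 1.11.5 marked 0 barcodes by its automatic threshold, so the 1174 MIP and 2271 Control top scores served as an alternative and doublets stayed in. TMM factors came from edgeR 4.0.16 in R 4.3.3. Python 3.11.15, NumPy 2.4.6, SciPy 1.17.1, pandas 2.3.3 and matplotlib 3.10.9 did the rest, and the ratio script was tested on simulated data. Gene positions are from GENCODE M21, 15 of 15 matched by identifier, and promoters from RefSeq.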

Additional observations from a re-analysis of the deposited data

How the results depend on the processing

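The lower cycling share in MIP kept its direction under 9 of 9 alternatives, from a log2 ratio of -1.01 to -0.75. The S phase share of cycle UMIs was higher in MIP than in Control each time: 43.9% in MIP and 39.9% in Control with at least 2 mitotic genes, 36.4% and 34.1% with at least 5, 39.3% and 35.3% without the top Scrublet scores, 39.5% and 35.9% without nuclei over 20000 UMIs, and 36.9% in Control without nuclei with 5 or more spiny neuron genes. The share of S-leading nuclei leaned the other way, at 29.6% in MIP and 34.9% in Control over all cycling precursors. The median of the S phase list stayed between 0.22 and 0.39 under 14 alternatives, and that of the G2 and M phase list between -0.07 and 0.23.

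Counts of genes past 1.5-fold moved with the UMI minimum. For MIP over Control there were 851 higher and 2300 lower at 20 UMIs, 227 and 604 at 100, and 3038 and 7344 at 1. For cycling over non-cycling there were 549 and 320 at 20 UMIs, 156 and 88 at 100, and 1556 and 1642 at 1, and 87 lower with 1 UMI of Pdgfra. For precursors over Dlx progenitors there were 762 lower at 20 UMIs, 262 lower at 100, 1529 higher and 2095 lower at 1, and 247 lower with TMM. Thinned to 2000 UMIs, the 3 comparisons gave 187 and 271, 131 and 78, and 209 and 257. With each nucleus counted once, 708 were higher in MIP, and 601 higher and 654 lower against Dlx progenitors. Without spiny-rich nuclei 609 were lower in MIP.

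Some named genes changed sign. Without top Scrublet scores Adora2a was at 0.77, E2f1 at 0.38, Slc6a11 at 0.21 and Ntng1 at -0.18. With each nucleus counted once E2f1 was at 0.20. Thinned, Axin2 was at 1.41, Bcl11b at 0.45, Bcl6 at -0.47, Cx3cr1 at -0.40, E2f1 at 0.99, Notch2 at 0.40, Ntng1 at -0.22, Sgo1 at 0.40 and Sp9 at 0.67. Without spiny-rich nuclei Adora2a was at 1.45, Bcl11b at 0.15, Drd2 at 0.037, E2f1 at 0.14, Numbl at 0.037 and Sp9 at 0.36. Those nuclei were picked by spiny neuron genes, so for markers of that list this is not a separate check. The cause of these moves was not tested. Leaving out nuclei of mixed identity kept 3 MIP and 1 Control cycling precursors, too few for a value. No paired analysis was possible because each group has 1 library. Depth limits low genes: with 71 MIP nuclei, a gene near 10 MIP UMIs has an interval over 1 log2 unit wide.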
